A study of Mus musculus with 3 samples.

Results

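Type I interferon-stimulated genes are the genes that a cell switches on when it meets interferon alpha or beta. A set of 41 such genes was followed in primary mouse keratinocytes with a homozygous Rassf9 deletion and in WT keratinocytes. The genes were listed by name, with earlier results of these data known, and each was read from the brightest of its probe sets that the array annotation assigns to a single gene symbol. By this rule 39 of the 41 genes were measured, out of 18193 genes measured in all, while Isg15 and Ifi44 had no such probe set. The fit described below tested 30 of them among 11089 genes, and the other 9 were too dim for it.

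The samples were keratinocytes from the skin of neonatal ICR mice, either wild type (WT) or homozygous for the RASSF9 deletion (RASSF9-/-), grown in serum-free keratinocyte medium. There was 1 WT array, from 1 mouse, and there were 2 RASSF9-/- arrays, from 2 mice, called array 1 and array 2 here. The RASSF9-/- mice came from 1 transgenic line, in which a fragment carrying the LMP1 gene of Epstein-Barr virus with its upstream promoter had inserted into Rassf9 and replaced part of an intron, so these mice carry the transgene as well as the deletion. The paper reports that LMP1 transcript was not detected in neonatal skin of this line, nor LMP1 protein in skin at a later age. The sample descriptions give a culture time of 24 h for WT and 48 h for RASSF9-/-, whereas the methods state the same time for all. Should the descriptions be right, genotype and time in culture cannot be told apart. The WT array and array 1 have the same array date, and array 2 has a different date.

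Interferon alpha and beta bind the receptor formed by IFNAR1 and IFNAR2, which activates the kinases JAK1 and TYK2. These phosphorylate STAT proteins, among them STAT2, which join IRF9 to form the factor ISGF3, and ISGF3 enters the nucleus and binds the interferon-stimulated response element in the promoters of its target genes. The products of these targets detect viral nucleic acid, degrade RNA, block translation and stop virus particles from entering or leaving the cell. Keratinocytes both make interferon and respond to it, and interferon-stimulated genes are a known feature of inflamed skin.

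The response element is built on pairs of the letters GAAA. RefSeq promoter windows of mouse build GRCm38.p6, running from 250 bases before to 50 after an annotated start, were found for 31 of the 41 genes and were searched for GAAANNGAAA on both strands, the other strand reading TTTCNNTTTC, with overlapping matches counted. The letters stood in 12 of the 31 genes (38.7%), against 3.99% of all 27025 genes with a window. With C as the first spacer base, GAAACNGAAA, the count was 7 of 31 (22.6%) against 0.792% of all genes. The stretches below, 5′ to 3′ on the strand of the gene, are shown because they lie before the start of genes whose signals are described further on, and the capitals mark the matches.

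Ifit1, chr19:34640769-34640828, plus strand: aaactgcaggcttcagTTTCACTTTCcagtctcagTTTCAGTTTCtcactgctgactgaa
Ifit3, chr19:34583365-34583424, plus strand: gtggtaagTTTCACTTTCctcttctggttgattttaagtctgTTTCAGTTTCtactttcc
Bst2, chr8:71537565-71537624, minus strand: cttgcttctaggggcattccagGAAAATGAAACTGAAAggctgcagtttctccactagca
Rsad2, chr12:26456538-26456597, minus strand: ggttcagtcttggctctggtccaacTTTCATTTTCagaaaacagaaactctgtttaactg
Oas1a, chr5:120907526-120907585, minus strand: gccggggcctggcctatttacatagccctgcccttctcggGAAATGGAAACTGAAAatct
Oas3, chr5:120777700-120777759, minus strand: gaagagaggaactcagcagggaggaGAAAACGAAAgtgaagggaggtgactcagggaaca

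Ifit1 and Ifit3 each held 2 separate matches on the opposite strand, whereas the 2 matches of Bst2 and those of Oas1a overlapped, sharing 1 block of GAAA. The letters were also found for Isg15, Trim30a, Ifih1, Ddx58, Eif2ak2 and Ifitm3. The windows of Irf7, Irf9, Uba7, Ube2l6, Herc6, Trim25, Adar, Oasl1, Oasl2, Ifit2, Cmpk2, Isg20, Dtx3l, Ifi35, Ifi44, Xaf1, Samd9l, Sp100 and Lgals3bp did not hold these letters. No window was given for Usp18, Zbp1, Dhx58, Oas2, Mx1, Mx2, Parp9, Parp14, Ifi27 and Rtp4. A match is a description of sequence, and a window without one says only that these letters are not in these bases.

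The values are MAS5 signals, which are probe set intensities on a linear scale that the authors had scaled to a trimmed mean of 500 on each array. The background limit was a signal of 78.4, the highest value of the control probe sets for Bacillus subtilis, a bacterium whose transcripts are not in mouse RNA. The median signal was 90.8, 99 and 81.7 on the WT array, array 1 and array 2, and the ratio of 3′ to 5′ Gapdh control probe sets, a sign of RNA integrity, lay between 0.832 and 0.939. Keratin genes Krt14 and Krt5, which mark basal keratinocytes, had signals of 27759.7 or more on all 3 arrays. Rassf9 had a signal of 478 on the WT array, 59.6 on array 1 and 120.2 on array 2 (log2 fold change -2.50, SE 0.67, limma adjusted p = 0.530). The disrupted gene was thus lower on both arrays whose labels give the deletion. Its other probe set gave 340.4, 68.2 and 76.7, under the limit on both RASSF9-/- arrays. Since WT is a single array, its own spread is unknown and the spread in every test came from the RASSF9-/- pair, which differs in array date.

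On array 1 the interferon-stimulated genes stood well above WT, and on array 2 most of them did not. All 39 measured genes had a higher signal on array 1 than on the WT array, where 55.2% of all genes did, and 27 of the 39 were at least 2-fold higher, against 15% of all genes. On array 2, 22 of the 39 had a higher signal than WT, against 46.3% of all genes, and 8 were at least 2-fold higher, against 12.7%. The median difference from WT, on the log2 scale, was 1.99 on array 1 and 0.23 on array 2, beside 0.08 and -0.06 over all genes. The range was 0.06 to 6.16 on array 1 and -2.15 to 3.62 on array 2.

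**Figure D1:**
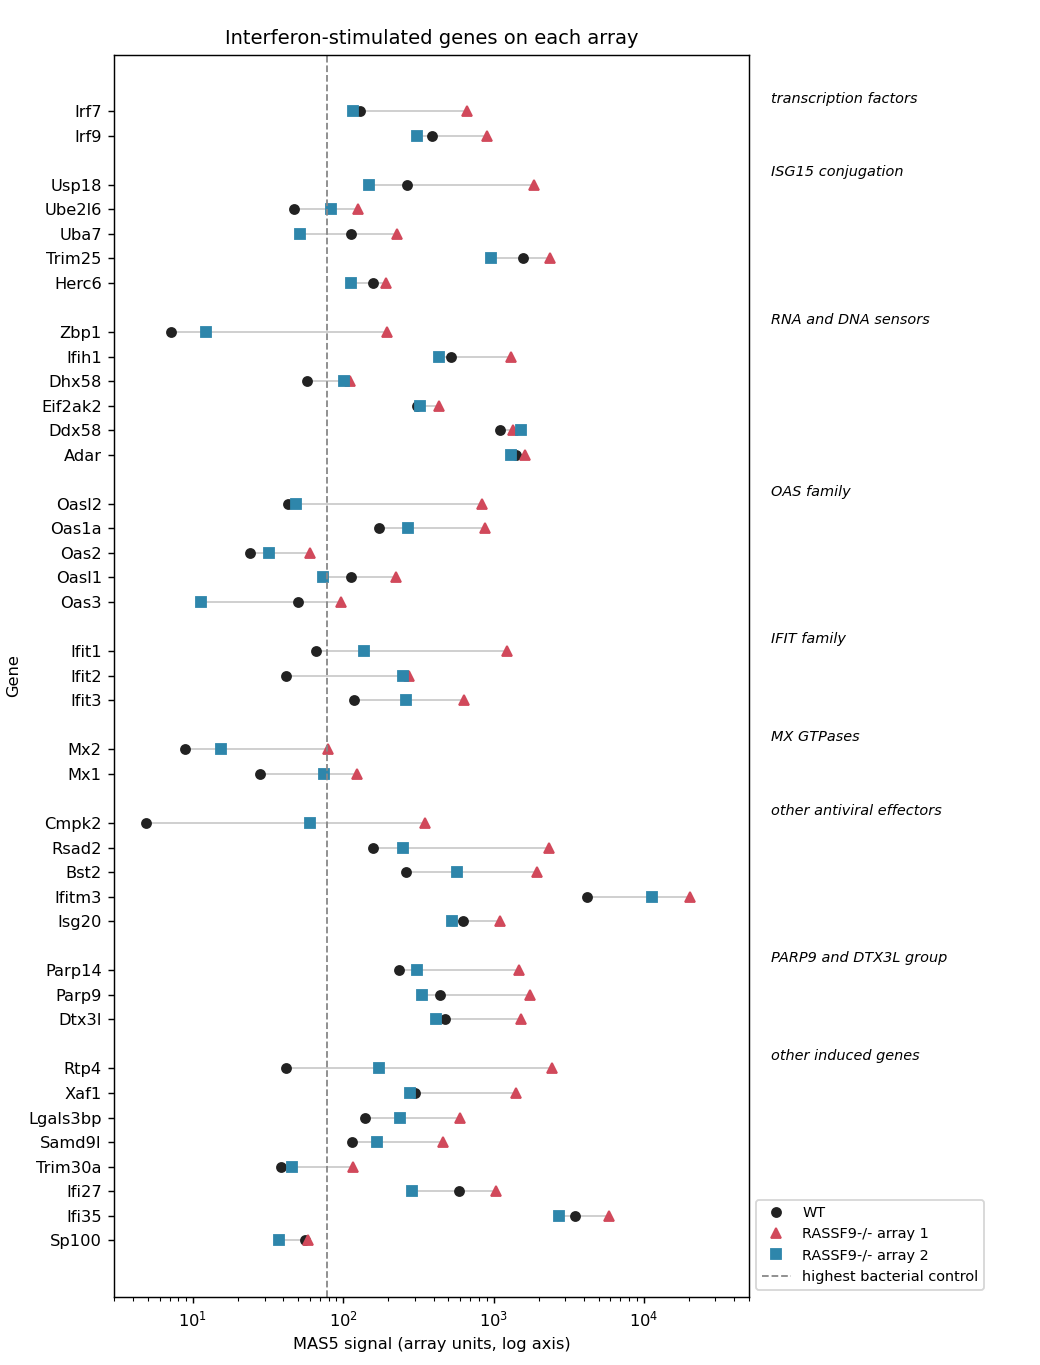
MAS5 signal (array units, log axis) of each measured interferon-stimulated gene on the WT array (circle), RASSF9-/- array 1 (triangle) and RASSF9-/- array 2 (square), grouped by role, and the background limit of 78.4 as a dashed line. Array 1 lies to the right of WT for all 39 genes, and array 2 for 22 of them.

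Against the 11089 genes of the fit, the interferon-stimulated genes gave no call. By limma, with adjusted p over all genes, 0 of the 30 tested members were called higher and 0 lower at 0.05, where 0.0812% of all genes were called higher and 0% lower. At an unadjusted p under 0.05, limma gave 5 of the 30 as higher, which were Ifit2, Ifit3, Bst2, Ifitm3 and Rtp4, against 3.11% of all genes, and 0 as lower, against 2.43%. The members that passed the filter on dim probe sets include some that passed through array 1, so this count is a description. Cmpk2, which had the largest difference from WT of the set on each array, did not pass the filter. Its signals on the WT array and array 2 were under the background limit.

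Genes that lay on one side of WT on both arrays were found in 1 direction. Of the 39, 22 were higher than WT on both arrays, against 33.4% of all genes, 0 were lower on both, against 31.8%, and 17 were higher on array 1 and lower on array 2, against 21.7%. At least a 2-fold difference on both arrays was seen for Cmpk2, Ifit2, Rtp4, Ifitm3, Mx1, Ifit3, Bst2 and Ifit1, which are 8 of 39, against 7.01% of all genes. When signals under the background limit were raised to it, 22 genes were at least 2-fold higher on array 1, against 3.4% of all genes, and 5 on array 2, against 4.05%. These 5, which were Ifit2, Ifit3, Bst2, Ifitm3 and Rtp4, were at least 2-fold higher on both arrays, against 1.4% of all genes. Without the floor, and apart from the 8 genes above, 18 were at least 2-fold higher on array 1 and within 2-fold of WT on array 2. Without it, 10 were within 2-fold on both. The shares over all genes were not computed for these last counts.

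**Figure D2:**
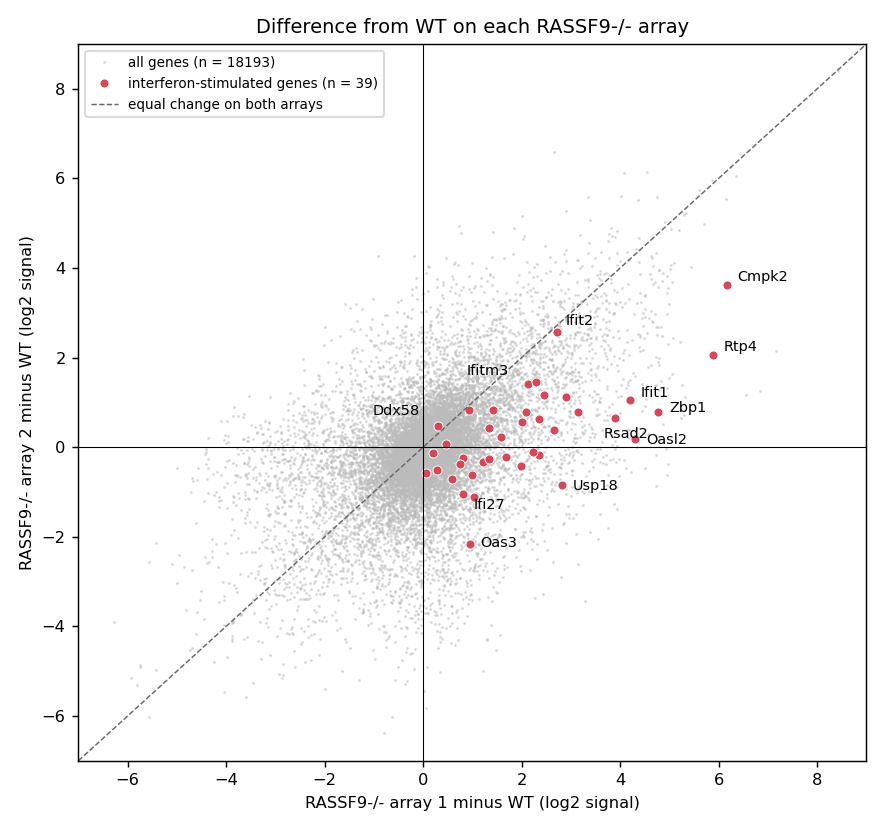
Difference from WT in log2 signal on array 1 (horizontal axis) and array 2 (vertical axis), with 39 interferon-stimulated genes as large points and all 18193 genes as small points. Both differences share the WT array, so a slope among the points is built in, and the interferon-stimulated genes lie to the right of 0 and, except Ddx58, below the dashed line of equal change.

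The WT signal was under the background limit for 14 of the 39 genes. Of these 14, 12 were above the limit on array 1 and 5 on array 2, so a fold against WT is a lower bound for them. Oas2 and Sp100 were under the limit on all 3 arrays, 23 genes were above it on all 3, and 14 were above it on 1 or 2. Shares over all genes were not computed for these counts, and array 1 had the highest median signal of the 3 arrays. With the limit as a floor, the median difference from WT was 1.31 on array 1 and 0 on array 2, beside 0 on both over all genes.

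**Figure D3:**
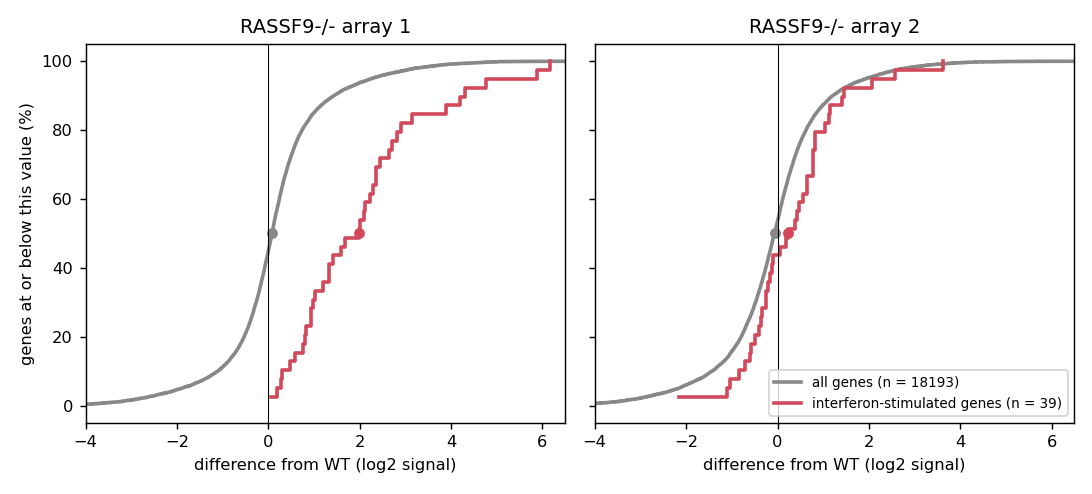
Share of genes (%) at or below each difference from WT in log2 signal, for array 1 (left) and array 2 (right), with dots at the medians. The curve of the 39 interferon-stimulated genes runs far to the right of that of all 18193 genes on array 1, with medians of 1.99 and 0.08, and close to it on array 2, with medians of 0.23 and -0.06.

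Of the transcription factors in the set, Irf9 is the DNA-binding part of ISGF3 and Irf7 carries the response forward by switching on interferon genes. Irf7 had a signal of 129.6 on the WT array, 662 on array 1 and 115.5 on array 2. Irf9 had 392.4, 906 and 311.9. Both were more than 2-fold higher on array 1 and slightly under WT on array 2, and by limma the log2 fold change was 1.09 with an SE of 1.02 for Irf7 and 0.44 with an SE of 0.69 for Irf9, with an adjusted p of 1.00 for both.

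The next group attaches the ubiquitin-like protein ISG15 to other proteins or removes it. Usp18, the protease that removes ISG15 and also damps signalling at IFNAR2, had a signal of 265.2 on the WT array, 1866 on array 1 and 148.6 on array 2. It was 7.04-fold higher on array 1 and under WT on array 2, and its log2 fold change was 0.99 with an SE of 1.34 (limma, adjusted p = 1.00). Uba7, the activating enzyme, had 112.3, 228.2 and 51.8, which places array 2 under the background limit. Its log2 fold change of -0.05 had an SE of 0.96 (limma, adjusted p = 1.00), and its sign turned with quantile normalization, with a pseudocount and with the floor, as given in the closing section. Ube2l6, the conjugating enzyme, was under the limit on the WT array at 47.2 and above it at 125.3 and 83.3, which makes it at least 1.60-fold higher on array 1 and at least 1.06-fold higher on array 2. The ligases Herc6 and Trim25 were within 2-fold of WT on both arrays, Herc6 with 158.5, 193.4 and 112.2 and Trim25 with 1581, 2385 and 966. Of the 5 measured genes, 5 were higher than WT on array 1 and 1 on array 2, beside 55.2% and 46.3% of all genes.

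Of 6 sensors of foreign nucleic acid, 6 were higher than WT on array 1 and 4 on array 2, beside 55.2% and 46.3% of all genes. Array 1 exceeded array 2 in 5 of the 6, beside 57.3% of all genes. Ddx58 encodes RIG-I, which recognises RNA ends of viruses, and had a signal of 1098.5 on the WT array, 1351 on array 1 and 1517 on array 2. Read from the brightest sets, Ddx58 was the exception among the 39 genes in that array 2 exceeded array 1. Its further probe sets differed in this, with 166, 205 and 151.3 in the second and 92.8, 156.1 and 163.2 in the third. Ifih1 encodes MDA5, which senses long double-stranded RNA, and had 521, 1314 and 434.7, with a log2 fold change of 0.54 and an SE of 0.69 (limma, adjusted p = 1.00). Array 1 was 2.52-fold above WT for Ifih1 and array 2 was under WT. Dhx58, the regulator of both receptors known as LGP2, had 57.7, 110.2 and 101.8 in its brightest set. There both RASSF9-/- arrays lay above the limit and WT below it, by at least 1.41-fold and 1.30-fold (log2 fold change 0.88, SE 0.65, limma adjusted p = 1.00). The second set gave 5.5, 88.1 and 2.8, with only array 1 above the limit, and the third stayed under it at 1, 4.2 and 12.1.

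Zbp1, a sensor of nucleic acids in the Z form that can start necroptosis, had a signal of 7.1 on the WT array, 194.3 on array 1 and 12.2 on array 2. Only array 1 was above the limit, by at least 2.48-fold. The kinase Eif2ak2, known as PKR, which stops translation on double-stranded RNA, had 310.9, 430.7 and 325.1. Adar, which edits adenosine to inosine in double-stranded RNA, had 1421, 1630.2 and 1303. Neither differed by 2-fold from WT on any array.

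Oas enzymes make 2′-5′-linked oligoadenylate, which activates RNase L, and the Oasl proteins are their relatives. Oas1a had a signal of 172.9 on the WT array, 882.9 on array 1 and 269.1 on array 2, which is 5.11-fold and 1.56-fold above WT. Oasl2 had 42.7, 842 and 48.6, so it was at least 10.7-fold higher on array 1 and under the limit on the other 2 arrays. Array 2 was thus lower than array 1 by at least 3.42 on the log2 scale. Oasl1 had 112.2, 222.9 and 73.4. Oas3 had 50.2, 96.6 and 11.3, of which only array 1 was above the limit, at least 1.23-fold above WT, and Oas2 stayed under it at 23.9, 60.2 and 32. All 5 were higher on array 1 than on array 2, beside 57.3% of all genes.

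The Ifit genes encode proteins that bind viral RNA and block its translation. Each of the 3 had a signal at least 2-fold above WT on both arrays, beside 7.01% of all genes. With the background limit as a floor 2 of the 3 did, beside 1.4% of all genes. Ifit1 had a signal of 66.2 on the WT array, 1220 on array 1 and 137 on array 2. It was at least 15.6-fold higher on array 1 and at least 1.75-fold higher on array 2, and its log2 fold change was 2.63 with an SE of 1.21 (limma, adjusted p = 0.945). Ifit2 had 41.9, 275.5 and 249.9, at least 3.51-fold and 3.19-fold higher. In contrast to Ifit1, the RASSF9-/- arrays lay close together for Ifit2, and its log2 fold change was 2.65 with an SE of 0.59 (limma, adjusted p = 0.366). Ifit3 had 117.3, 639.2 and 262.1, all above the limit, with a log2 fold change of 1.80 and an SE of 0.67 (limma, adjusted p = 0.823). The difference of array 2 from array 1 was thus -3.16 on the log2 scale for Ifit1, -1.29 for Ifit3 and -0.14 for Ifit2. Ifit1 and Ifit3 hold the printed pairs of matches in their promoters, and the Ifit2 window held none. A link between the matches and these differences was not tested.

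The Mx genes encode GTPases that trap viral nucleocapsids. Mx1 had a signal of 28.1 on the WT array, 122.8 on array 1 and 74.8 on array 2, and Mx2 had 8.9, 78.9 and 15.3. Array 1 was above the limit for both, by at least 1.57-fold for Mx1 and at least 1.01-fold for Mx2, and the other arrays were under it. Both were too dim for the fit.

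Bst2 and Ifitm3 act at membranes. Bst2, known as tetherin, holds budding virus at the cell surface, and had a signal of 260.1 on the WT array, 1942 on array 1 and 568 on array 2. This was 7.47-fold and 2.18-fold above WT, with a log2 fold change of 2.01 and an SE of 0.74 (limma, adjusted p = 0.803). Ifitm3, which blocks the fusion of virus with endosomes, had 4185, 20361 and 11411. It was 4.87-fold and 2.73-fold above WT, with a log2 fold change of 1.86, an SE of 0.42 and an adjusted p of 0.372 by limma. For both genes array 1 was highest and WT lowest, with all arrays above the limit.

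Rsad2, Cmpk2 and Isg20 act on nucleotides and RNA. Rsad2, known as viperin, makes a chain-terminating nucleotide and had a signal of 158.6 on the WT array, 2351 on array 1 and 248.5 on array 2, which is 14.8-fold and 1.57-fold above WT. Cmpk2, a mitochondrial nucleotide kinase encoded beside Rsad2, had 4.9, 351.3 and 60.4. Its measured differences from WT were 6.16 and 3.62 on the log2 scale, but only array 1 was above the limit, at least 4.48-fold above WT. The RNA exonuclease Isg20 had 626.7, 1105 and 529.4, within 2-fold of WT on both arrays.

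Parp9 and Dtx3l form a complex of an ADP-ribosyltransferase-like protein and a ubiquitin ligase, and Parp14 is a mono-ADP-ribosyltransferase. Parp9 had a signal of 442.6 on the WT array, 1763 on array 1 and 333 on array 2. Dtx3l had 477.9, 1525 and 413.3. The partners followed the same order, array 1 above WT above array 2, with log2 fold changes of 0.79 (SE 0.93) for Parp9 and 0.73 (SE 0.77) for Dtx3l, and an adjusted p of 1.00 for both by limma. Parp14 had 235.9, 1481 and 309.2, 6.28-fold and 1.31-fold above WT.

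The remaining genes are induced by interferon and have diverse roles. Rtp4, a chaperone of membrane receptors, had a signal of 41.6 on the WT array, 2460.2 on array 1 and 173.8 on array 2, which is at least 31.4-fold and 2.22-fold higher. Its log2 fold change was 3.97 with an SE of 1.41 (limma, adjusted p = 0.777). Lgals3bp, a secreted glycoprotein that binds galectin, had 139.6, 596.4 and 240, with a log2 fold change of 1.44 and an SE of 0.68 (limma, adjusted p = 0.959). Both stood above WT on both arrays. Xaf1, an antagonist of the apoptosis inhibitor XIAP, had 299.1, 1409.9 and 277.6, with a log2 fold change of 1.06 and an SE of 0.92 (limma, adjusted p = 1.00). Samd9l had 114.1, 457.8 and 167.2. Trim30a, a TRIM family protein, had 38.8, 116.5 and 45.4, with array 1 at least 1.49-fold above WT and the other arrays under the limit.

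In Ifi27 and Ifi35 array 2 lay under WT. Ifi27, which encodes a mitochondrial protein, had a signal of 590.7 on the WT array, 1036 on array 1 and 285.3 on array 2, and its log2 fold change was -0.12 with an SE of 0.77 (limma, adjusted p = 1.00). It was the gene with a signal above the limit on every array that was at least 2-fold lower on array 2, at -1.05 on the log2 scale. Oas3 and Uba7 passed 2-fold lower on array 2 as well, which makes 3 of 39 against 15.8% of all genes, but their array 2 signals were under the limit, and with the floor 1 of 39 remained, Ifi27, against 5.21% of all genes. Ifi35, a partner of the transcription regulator NMI, had 3502, 5912 and 2714. Sp100, a protein of nuclear bodies, stayed under the limit at 55.6, 57.9 and 37.4.

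Set directly against each other, 38 of the 39 genes were higher on array 1 than on array 2, against 57.3% of all genes, and 28 were at least 2-fold higher, against 18.3%. The median difference of array 2 from array 1 was -1.60 on the log2 scale, against -0.14 over all genes, and with the floor it was -1.31 against 0. Of genes above the limit on both arrays, Rtp4 at -3.82 and Usp18 at -3.65 lay at one end and Ddx58 at 0.17 at the other. For 32 of the 39 genes array 2 lay nearer to WT than to array 1, as it did for 50.2% of all genes. Each is 1 sample of 1 mouse and their array dates differ, so mouse, culture and date cannot be told apart and there is no test of this difference.

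The genes with the letters GAAANNGAAA in the promoter window and those without overlapped in their values. With the letters, the 11 measured genes had a median difference from WT of 2.28 on array 1 and 0.64 on array 2, and array 1 ranged from 0.30 to 4.20. Without them, the 18 measured genes had medians of 1.31 and -0.19, and array 1 ranged from 0.06 for Sp100 to 6.16 for Cmpk2. These are descriptions of genes that share arrays, without a test.

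A second look at each gene came from its further probe sets. For 18 genes the array held more than 1 probe set of a single symbol, 28 further sets in all. On array 1, 27 of the 28 had the sign of the brightest set, and on array 2, 15 of the 28 did. Repeat sets of Rsad2 gave 64.1 on the WT array, 1329.5 on array 1 and 111 on array 2, and 93.3, 787 and 81.2. Those of Dtx3l (244, 986 and 191.8) and Ifi27 (470.7, 969.5 and 251) kept the order of their brightest sets.

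Other genes differed between their probe sets, so the value of a gene depended on the set read. The brightest set of Herc6 was within 2-fold of WT, whereas the second gave 46.1 on the WT array, 302.6 on array 1 and 46.4 on array 2. Trim25 was under WT on array 2 in its brightest set and gave 99.1, 246.1 and 254.9 in its dimmest. Parp14 was above WT on array 2 in its brightest set and gave 62.8, 82.9 and 6.9 in the second, where array 2 was under the limit. The brightest sets of Trim25 and Ifi35 are of a type whose probes may match several transcripts.

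**Figure D4:**
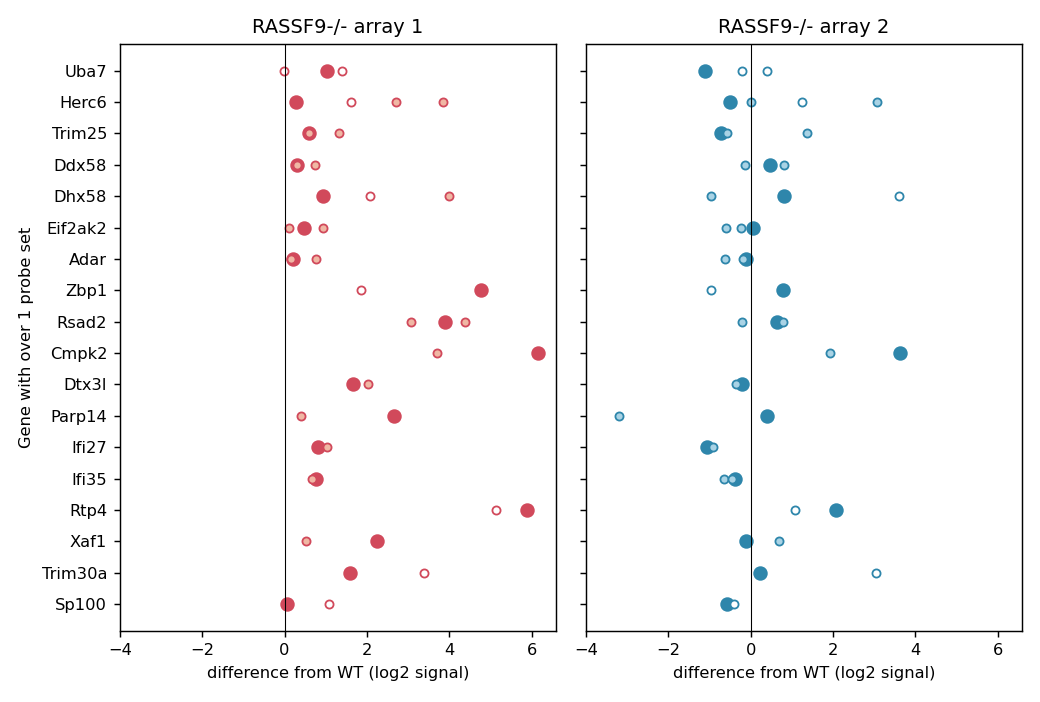
Difference from WT in log2 signal on array 1 (left) and array 2 (right) for the 18 genes with over 1 probe set. Large points are the brightest set, small filled points further sets above the background limit on at least 1 array, and open points further sets under it on all arrays, and nearly all points lie to the right of 0 on array 1 but on both sides of 0 on array 2.

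Other genes of the pathway, both upstream of the set and targets biased to interferon gamma, were read from lists of 51 measured genes outside it, 37 of them tested. Limma called 1 of the 37 higher and 0 lower, beside 0.0812% and 0% of all genes, and at an unadjusted p under 0.05 it gave 5 as higher and 0 as lower, beside 3.11% and 2.43%. The median difference of the 51 from WT was 0.41 on array 1 and -0.0043 on array 2.

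Most of the interferon genes that were measured were close to background. Of 19 listed ligands 10 were measured. Ifna6, Ifna7, Ifna12, Ifna13, Ifna14, Ifnk, Ifne, Ifnl2 and Ifnl3 had no value, so nothing is said of them. Of the 10 measured, 8 were under the limit on all 3 arrays, among them Ifnb1 at 30.1 on the WT array, 60.2 on array 1 and 61.1 on array 2. Ifnz had 140.4, 139 and 71.9, and Ifna1 was above the limit only on the WT array at 88.3. For those 8 ligands no transcript was detectable above background on any array, which does not show that it was absent.

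Most receptor, kinase and STAT genes were within 2-fold of WT. Ifnar1 had a signal of 750.6 on the WT array, 899.5 on array 1 and 613.9 on array 2, and Ifnar2 had 1098, 1303.5 and 764.2. All 6 receptor genes were within 2-fold of WT on both arrays. Jak1 had 3853, 3750.3 and 2862, and Tyk2 had 901.2, 860.2 and 563.4. Stat2, which ISGF3 shares with IRF9, had 168.7, 219.3 and 81.2, the 1 gene of 5 measured transducers that passed 2-fold, lower on array 2. Of 6 negative regulators none was 2-fold from WT on either array, and Socs1, the inhibitor of JAK kinases, had 83.2, 63.4 and 56.6.

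Among 9 measured genes that sense nucleic acid or activate IRF factors, Ikbke stood apart. It encodes a kinase of IRF3 and IRF7 and had a signal of 384.2 on the WT array, 2686 on array 1 and 1912 on array 2, with a log2 fold change of 2.56 and an SE of 0.41 (limma, adjusted p = 0.245). Cgas, the sensor of cytosolic DNA, had 103.8, 242 and 189.1. Tbk1 (1918, 2011 and 2161) and Irf3 (1443, 1407 and 1337), which act in the same step as Ikbke, were within 2-fold of WT.

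Genes that respond chiefly to interferon gamma, and in part to alpha and beta, had higher signals than WT on array 1 in most cases. Of 15 measured, 13 were at least 2-fold higher than WT on array 1 and 6 on array 2, beside 15% and 12.7% of all genes. Cxcl10, a chemokine that attracts T cells, had a signal of 18.5 on the WT array, 1319 on array 1 and 861 on array 2, at least 16.8-fold and 11.0-fold higher. It was the 1 gene of these lists called higher, with a log2 fold change of 5.85 and an SE of 0.55 (limma, adjusted p = 0.0359). Its WT signal was under the limit, so Cxcl10 passed the filter on dim probe sets through the RASSF9-/- arrays. The call is thus a description. It was not made under 7 alternatives given in the closing section, among them a stricter filter that Cxcl10 did not pass. Cxcl11, a chemokine of the same receptor, had 56.4, 1248 and 255.6, with a log2 fold change of 3.32 and an SE of 0.94 (limma, adjusted p = 0.561). Psmb8, a subunit of the immunoproteasome, had 47.7, 990.2 and 225.4, and Igtp, a GTPase of the interferon gamma response, had 16.6, 475 and 105.8. In each of the last 3 genes array 1 exceeded array 2, as it did for most of the interferon-stimulated set. Irf1, a transcription factor that interferon gamma induces, had 1029, 3123 and 1330.1.

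**Figure D5:**
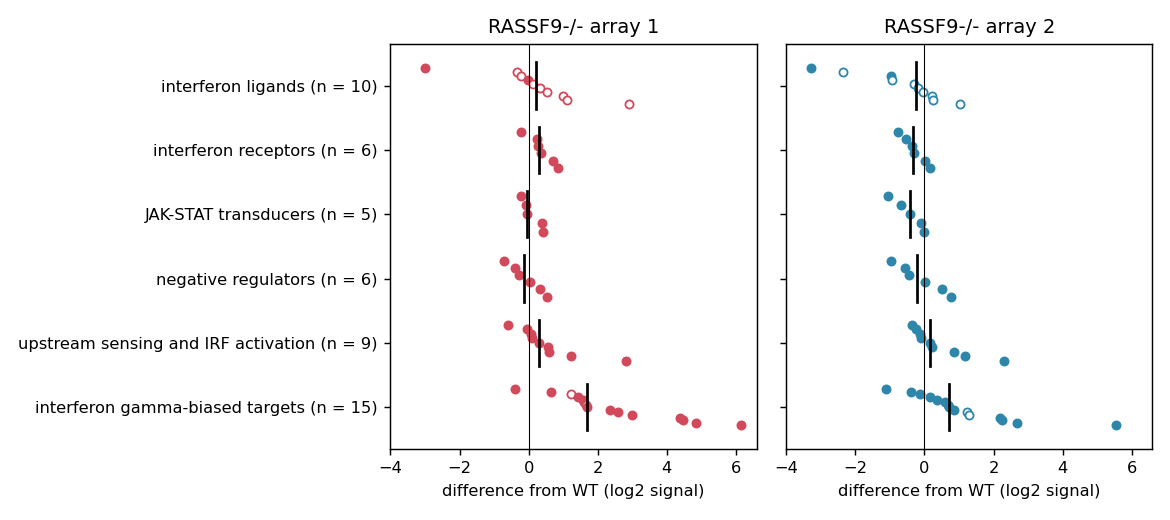
Difference from WT in log2 signal on array 1 (left) and array 2 (right) for genes of the interferon pathway outside the set, by list, with open points for genes under the background limit on all arrays and a bar at each median. Interferon gamma-biased targets have medians of 1.69 and 0.72, whereas the other 5 lists have medians between -0.12 and 0.31 on array 1 and between -0.43 and 0.17 on array 2.

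Genes that mark other cells of skin were read beside these values. Of 10 keratinocyte markers 9 were measured, all above the limit on all arrays, and their summed signal was 181027 on the WT array, 154327 on array 1 and 179488 on array 2. Melanocyte markers, such as Tyrp1 and Dct, were above the limit on all arrays in 6 of 6, with sums of 28210, 24141 and 33895. So the cultures held melanocyte transcripts on every array. Tyr (545.2, 560.6 and 685.4) and Sox10 (413.2, 430.2 and 682.1) were lowest on the WT array, and the other 4 were lowest on array 1. Fibroblast markers had sums of 2863, 4819 and 1359, of which Postn gave 1438, 3687 and 471.3, while Col1a1 was lower on both RASSF9-/- arrays at 429.4, 243.2 and 143.4. Their part in the interferon-stimulated signals was not tested.

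Genes of immune cells were mixed, some under the background limit and some above it. Of 8 T cell markers 4 were under the limit on all 3 arrays, Cd3d, Cd2, Cd4 and Ptprc, while Cd3e (25, 82.3 and 17.8) passed it on array 1 and Cd3g (81.1, 38.2 and 6.2) on the WT array. The 8 markers summed to 843.6 on the WT array, 657.3 on array 1 and 354.5 on array 2, mostly from Cd8a and Thy1. Among macrophage and monocyte markers, Csf1r gave 784.4, 791.8 and 1686 of sums of 1611, 1774 and 2392, and Cd68 (394.7, 350.8 and 407) and Adgre1 (113, 115.2 and 83.5) were also above the limit on all arrays. Aif1 (81.3, 154.4 and 16.4) and Tyrobp (48.9, 136.7 and 60.3) were highest on array 1, as was Mrc1 (102.5, 114.2 and 43.6), and Itgam and Fcgr1 were under the limit on all arrays. The part of these cells in the interferon-stimulated signals was not tested. Langerhans and dendritic markers summed to 776, 928 and 286.2, mostly from H2-Ab1, with Cd207 at 14.1 or less and 5 of 7 under the limit on all arrays. Siglech and Tlr7, which mark plasmacytoid dendritic cells, were under the limit on all arrays, and the list's sums of 18190, 1731 and 3800 came mostly from Ly6d, which keratinocytes also express. The sums of neutrophil markers (563.5, 731.2 and 385.6), endothelial markers (261.7, 354.6 and 335.4) and B cell markers (87.6, 127.5 and 126.8) were low on every array. In a bulk culture a change in the number of cells of a type and a change in RNA per cell cannot be told apart.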

How the data were processed

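RNA of 1 WT and 2 RASSF9-/- keratinocyte cultures was hybridized to the Affymetrix Mouse Genome 430 2.0 array. Per the labels the authors computed MAS5 signals, and the deposited table holds 1 linear intensity per probe set with a trimmed mean of 500 on each array, as checked after removing 2% at each end. The MAS5 version is not given in the sources used here. Detection calls were not used here. The number of arrays limits the precision, and p-values measure only the spread between these samples.

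Of 45037 probe sets other than controls, the platform annotation gives 34945 a single symbol, 932 several and 9160 none. Each gene was read from its brightest single-symbol probe set by mean log2 signal. Signals were log2 transformed without further normalization or pseudocount, and genes were tested from the 50th percentile of the non-control probe sets upward, which lay at 82.7 in signal. The comparison used limma 3.58.1 (lmFit, then eBayes with its trend option, R 4.3.3), with two-sided p-values adjusted over 11089 genes after Benjamini-Hochberg and a threshold of 0.05. The fit has 1 residual degree of freedom and a median of 5.31 prior degrees of freedom. Array date was no term of the model, since no residual degree of freedom would be left. The background limit is the highest signal of 27 Bacillus subtilis control probe sets. Where WT lies under it, the fold is the array's signal over the limit and is a lower bound. Shares over all genes cover 18193 genes, or 11089 for tests. The procedure was tested on simulated data.

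The 41 genes, the pathway lists and the cell type markers were chosen with earlier results of these data known. Signals were given for every member, whether or not it passed the limit. Fold change, SE and adjusted p were given, where tested, for the 12 members ranked highest by their weaker change where both arrays moved in 1 direction and for members whose arrays lie on opposite sides of WT, 1 of them by at least 2-fold. For the pathway lists up to 4 genes of each were taken by the same measure, and Ifnar1, Ifnar2, Jak1, Tyk2, Stat2, Irf1, Irf3, Tbk1, Ifna1, Ifnz and Socs1 were named for their role after their values were seen. The pathway names Mb21d1 and Tmem173 were matched to Cgas and Sting1 through RefSeq synonyms. Alternatives were other scalings, filters, a pseudocount of 32, the floor, averaging of all probe sets of a gene, no trend, the methods' t-test, fold thresholds of 1.5 and 3, a narrower motif and leaving out each RASSF9-/- array. Promoter windows are from RefSeq and were read in Python 3.11.15.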

Additional observations from a re-analysis of the deposited data

How the results depend on the processing

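The count of interferon-stimulated genes called by limma was 0 in each direction under every alternative scaling, filter, pseudocount, floor, averaging of probe sets and fit without trend that was run. The methods name t-tests in general and give no test for the arrays. Applied here without adjustment, the methods' t-test called 1 of the 30 tested members higher, against 255 of all 11089 genes tested. This member was Ifit2 (log2 fold change 2.65, t-test, unadjusted p = 0.0293). The number at least 2-fold higher on both arrays went from 8 to 5 with a pseudocount of 32, to 5 with the background limit as a floor, to 15 at a threshold of 1.5-fold and to 3 at 3-fold. Leaving out one RASSF9-/- array, which leaves 1 array against 1 and no test, gave 8 to 27 genes higher and 0 to 3 lower; the 27 rest on array 1, which shares its array date with WT, so a count on the RASSF9-/- group depends on array 1. Over all genes, 9 were called higher by limma, but 0 with quantile normalization, the floor, no trend or the adjusted methods' t-test, 3 with the pseudocount, 5 with a filter at the 75th percentile and 255 by the unadjusted methods' t-test. The count called lower went from 0 to 1 with division by the array median, 2 with the mean of probe sets and 234 by the unadjusted methods' t-test. The call of Cxcl10, the 1 pathway gene called higher, gave way to 0 under quantile normalization, the pseudocount and the floor. It did so too without trend and under both forms of the methods' t-test. Under the stricter filter the count was also 0, since the mean log2 signal of Cxcl10 lay under that filter. The pathway median on array 1 went from 0.41 to 0.11 with the floor. The log2 fold change of Uba7 turned from -0.05 to 0.030 with quantile normalization, 0.033 with the pseudocount and 0.25 with the floor. The narrower promoter motif was held by 7 members in place of 12. The causes were not tested. For the 17 members followed singly, 154 of 158 alternative values with all arrays kept direction and call. Leaving out one RASSF9-/- array turned the sign of 9 of the 17, whose log2 difference from WT ranged from -0.17 to 2.35 (Irf7), -0.33 to 1.21 (Irf9), -1.12 to 1.02 (Uba7), -0.84 to 2.81 (Usp18), -0.26 to 1.33 (Ifih1), -0.41 to 1.99 (Parp9), -0.21 to 1.67 (Dtx3l), -1.05 to 0.81 (Ifi27) and -0.11 to 2.24 (Xaf1), the lower value without array 1. No paired analysis was possible because there was 1 WT array. Signals near the background limit and a single WT array limit the precision.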
